A study of Mus musculus with 24 samples.

Results

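The genes described here encode the subunits of the proteasome. They are the 44 of 55335 genes in the count files whose symbol consists of Psm, one of the letters a to e, a number and at most one further letter, which takes in the subunits of the core and regulatory particles, the activators and 3 assembly chaperones (*Psmd5*, *Psmd9* and *Psmd10*). Bulk RNASeq libraries of polyadenylated RNA were made from primary osteoblasts (OBs, the cells that make bone) from the parietal bones of mouse pups a few days old, at days 8, 14 and 21 of culture under osteogenic differentiation conditions. WT cultures were compared with cultures heterozygous (Het) for the G610C substitution of cysteine for glycine in the procollagen α2(I) chain, and each genotype had 4 libraries at each day, which gives 24. Cells of several pups of a genotype were pooled for culture, so libraries of a pool do not carry the spread between animals, and p-values measure the spread between these libraries, part of which may be technical. G610C is a point substitution, so the level of *Col1a2* mRNA cannot check the genotype labels.

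The proteasome is the cell's main machine for degrading proteins tagged with ubiquitin. Its core particle is a barrel of stacked rings of α (*Psma*) and β (*Psmb*) subunits, of which *Psmb6*, *Psmb7* and *Psmb5* encode the catalytic ones. The regulatory particle caps the barrel: a base of ATPases (*Psmc*) unfolds the substrate, and a lid (*Psmd*) carries the deubiquitinase encoded by *Psmd14*. In cells exposed to interferon, and constitutively in many blood cells including macrophages, *Psmb9*, *Psmb10* and *Psmb8* replace the catalytic subunits encoded by *Psmb6*, *Psmb7* and *Psmb5*, respectively, to form the immunoproteasome. *Psme1* and *Psme2* encode the activator PA28, which opens the core without ATP and whose genes also respond to interferon. *Psme3* encodes its nuclear relative, and *Psme4* encodes PA200, another nuclear activator. Type I procollagen itself is folded in the endoplasmic reticulum, and the proteasome works in the cytosol and the nucleus.

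The relative quantity (RQ) of a gene relates its count to that of the housekeeping genes of the same library (the geometric mean of *Actb*, *Actg1*, *Sdha* and *Mrfap1*), the scale chosen for the study. Libraries held 17140202 to 59734231 counts. Those of replicate 1 were the smallest (17140202 to 25825762 counts in 6 libraries, against 28159342 to 59734231 in the other 18), and they stood apart in the members as well. In the constitutive subunits of the rings, base and lid (31 genes), replicate 1 exceeded the mean of replicates 2 to 4 by a median of 0.20 on the log2 scale (0.05 to 0.33), positive for all 31. The study's methods describe separate experiments with cells of different litters, plated at different densities and in part under low oxygen, but the labels do not say which replicate came from which. The main results on the members are therefore also given without replicate 1, while values of other pathway genes include all libraries. Replicates 2 to 4 may come from the same pool of cells. P-values without replicate 1 would then measure only the spread between wells of that pool. The OB genes *Col1a1*, *Runx2*, *Sp7* and *Ibsp* had at least 1118 counts in every library. Macrophage genes were also counted in all libraries, and their values stand beside the immunoproteasome results. In bulk samples, fewer cells of a type and less RNA per cell cannot be told apart.

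Promoters of 37 members were found in the RefSeq table (GRCm38.p6). The 250 bases upstream of each start were searched on both strands for a few motifs, to show what the immune and the constitutive catalytic genes carry. The GAS motif (TTCNNNGAA, bound by STAT factors) occurred in 8.13% of 27025 genes and, among the members, in *Psmb8* alone. It is shown in capitals in the 30 bases around it, chr17:34198087-34198116 on the plus strand. RefSeq's start of *Psmb8* lies downstream of the first base of the gene in GENCODE (34197721), so this stretch is upstream of the start by RefSeq and inside the first exon of a GENCODE transcript.
Psmb8: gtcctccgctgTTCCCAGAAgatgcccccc
The core of the antioxidant response element (TGACNNNGC, bound by NFE2-like factors with small MAF partners) occurred in 11.5% of genes and in 5 members, *Psmb5*, *Psmb6*, *Psmc6*, *Psmd12* and *Psmd9*. For the catalytic pair *Psmb5* (chr14:54618023-54618245, minus strand) and *Psmb6* (chr11:70525107-70525356, plus strand) the sequence upstream of the first exon is shown with the match in capitals.
Psmb5: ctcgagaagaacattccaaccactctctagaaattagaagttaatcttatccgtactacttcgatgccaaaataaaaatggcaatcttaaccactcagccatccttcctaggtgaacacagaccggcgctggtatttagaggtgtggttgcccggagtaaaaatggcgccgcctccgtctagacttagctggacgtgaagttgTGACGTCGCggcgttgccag
Psmb6: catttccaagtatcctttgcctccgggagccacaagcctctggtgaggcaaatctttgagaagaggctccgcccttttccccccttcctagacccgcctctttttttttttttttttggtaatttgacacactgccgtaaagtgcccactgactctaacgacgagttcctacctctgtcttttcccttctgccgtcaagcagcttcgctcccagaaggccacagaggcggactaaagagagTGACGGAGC
The interferon-stimulated response element core was matched in 3.46% of genes and in *Psmb3*, *Psmd4* and *Psmd9*. The κB motif was matched in 8.23% of genes and in 6 members, *Psma6*, *Psma7*, *Psmd11*, *Psmd12*, *Psmd13* and *Psme4*. The CCAAT box was matched in 37.5% of genes and in 14 of the 37 members, *Psmb9* among them. The RefSeq promoter entry of *Psmb9*, which also takes in the first bases of the transcript, shares 275 bases with that of *Tap1*, a peptide transporter gene transcribed in the opposite direction. These are matches of letters, chosen after the values were seen, and not evidence of binding.

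Levels of different genes were compared per kilobase of exon (RQ per kb, mean of 24 libraries). Constitutive subunits ranged from 0.0210 (*Psmd11*, a lid subunit) to 0.168 (*Psmb5*), an 8.00-fold span. These levels depend on the exon lengths used, 6383 bases for *Psmd11* and 899 for *Psmb5*. Without length, log2 RQ over the 24 libraries was −3.14 to −2.52 for *Psmd11* and −2.91 to −2.46 for *Psmb5*. These ranges overlapped, so the span came largely from the lengths. Per kilobase, the median was 0.0775 for the 14 genes of the core particle and 0.0513 for the 17 of the regulatory particle. The medians of the particles were not compared without length. The immunoproteasome genes lay below most of them, at 0.0210 for *Psmb10*, 0.00824 for *Psmb8* and 0.00307 for *Psmb9*. *Psme2* (0.0690) stood among the constitutive subunits, ahead of *Psme3* (0.0520), *Psme1* (0.0363) and *Psme4* (0.0247). The germline α subunit *Psma8* had 0.00211 with 40 to 185 counts per library. *Psmb11*, which replaces a catalytic subunit in thymic epithelium, had 0 to 4 counts and was the only member that did not pass the filter on low counts, so 43 were tested.

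Over days 14 and 21, the immunoproteasome genes and both PA28 genes were higher in Het cultures, *Psme4* was lower, and none of the constitutive subunits passed the test. In edgeR's quasi-likelihood test (Benjamini-Hochberg adjustment over all genes, day as a covariate), 5 of 43 members were higher and 1 was lower at an adjusted p under 0.05. Of all 19839 genes tested, 7.26% were higher and 8.88% lower. All 3 immunoproteasome subunits were among the 5, while 0 of the 31 constitutive subunits were called, with 6 at an unadjusted p under 0.05 in edgeR. DESeq2's Wald test called 2 of the 31 higher, against 1938 of 19839 genes higher. The plot of all members by sub-complex shows these values side by side.

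**Figure D1:**
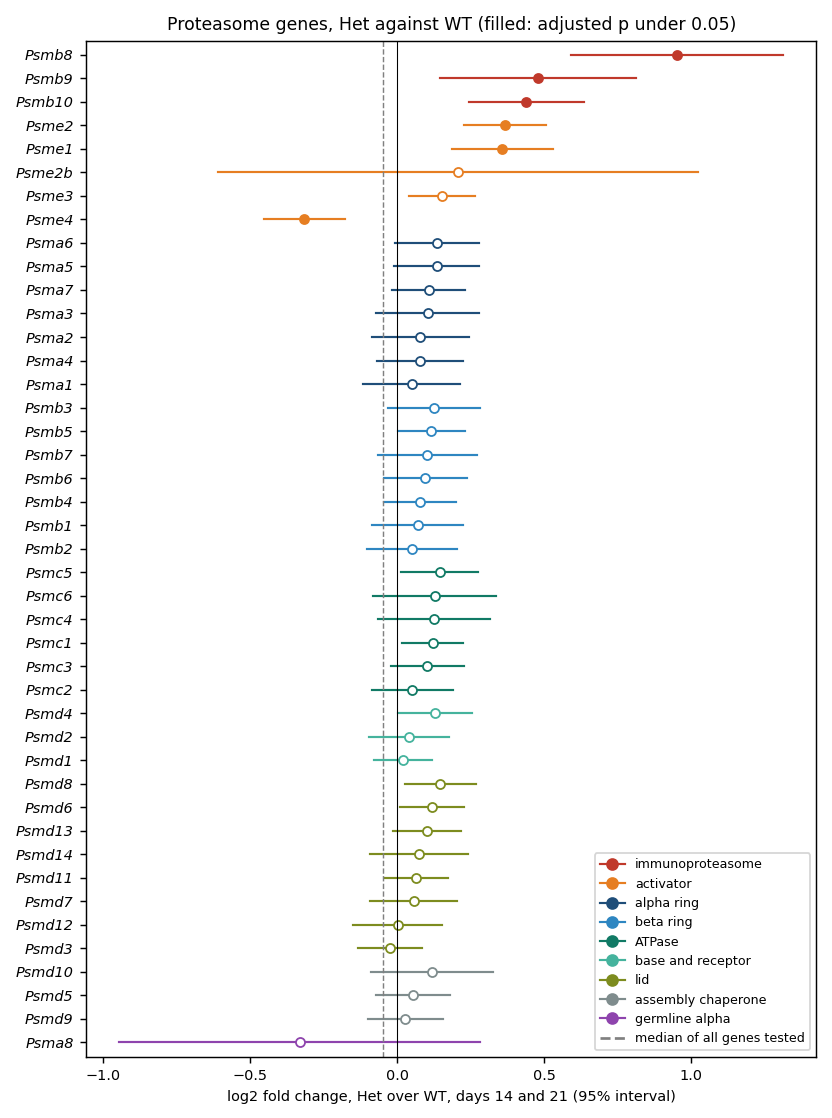
Log2 fold change of each of the 43 tested members, Het over WT at days 14 and 21, with its 95% interval; colours give the sub-complex, filled points have an adjusted p under 0.05 and the dashed line is the median of all genes tested (−0.05). *Psmb8*, *Psmb9*, *Psmb10*, *Psme1* and *Psme2* lie to the right. *Psme4* and *Psma8* (−0.33, not called) lie to the left, while the 31 constitutive subunits lie between −0.02 and 0.15.

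*Psmb8* (chromosome 17 from 34197721 to 34201454 in GRCm38, plus strand), the immune counterpart of *Psmb5*, had the largest log2 fold change of the 43 tested members. Its RQ in replicates 1 to 4 was 0.0260, 0.0166, 0.0142 and 0.0183 in WT at day 14 and 0.0320, 0.0237, 0.0248 and 0.0273 at day 21. In Het it was 0.0228, 0.0398, 0.0465 and 0.0517 at day 14 and 0.0302, 0.0513, 0.0483 and 0.0553 at day 21. Of the 8 Het libraries, 6 were above every WT library, and the other two were those of replicate 1, which lay below their WT counterparts. The log2 fold change was 0.95 (standard error 0.17, adjusted p = 0.00302 in edgeR), and the ratio of mean RQ was 1.89 (two-sided exact permutation p = 0.00187 over 8 and 8 libraries). Without replicate 1 the log2 fold change was 1.26 (adjusted p = 1.6e-06 in edgeR), and in replicate 1 by itself it was −0.14, with no test.

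*Psmb9* (chromosome 17 from 34181987 to 34187764, minus strand) lies near *Psmb8* in the major histocompatibility complex. Its RQ in replicates 1 to 4 was 0.0129, 0.00668, 0.00721 and 0.00903 in WT at day 14 and 0.0165, 0.0116, 0.0132 and 0.0127 at day 21. In Het it was 0.00975, 0.0124, 0.0151 and 0.0185 at day 14 and 0.0123, 0.0187, 0.0176 and 0.0176 at day 21. The genotypes overlapped: 4 Het libraries exceeded all those of WT, and replicate 1 was again lower in Het than in WT at both days. The log2 fold change of 0.48 (standard error 0.16) was just inside the threshold (adjusted p = 0.049 in edgeR). It was 0.76 without replicate 1 (adjusted p = 0.000227 in edgeR) and was −0.41 within replicate 1. The call was lost when *Mrfap1* or *Sdha* was left out of the scale (adjusted p = 0.054 and 0.0663 in edgeR) and without a filter on low counts. Exons of *Psmb9* overlap those of *Tap1* on the other strand, and whether counting used the strand is not given in the sources used here.

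*Psmb10* (chromosome 8 from 105935735 to 105938444, minus strand), the counterpart of *Psmb7*, was the most abundant of the 3 per kilobase. Its RQ in replicates 1 to 4 was 0.0395, 0.0255, 0.0252 and 0.0298 in WT at day 14 and 0.0416, 0.0346, 0.0290 and 0.0316 at day 21. In Het it was 0.0367, 0.0407, 0.0410 and 0.0460 at day 14 and 0.0440, 0.0484, 0.0444 and 0.0452 at day 21. The 2 highest WT libraries were those of replicate 1, and 5 Het libraries were above them. *Psmb10* had a log2 fold change of 0.44 (standard error 0.09, adjusted p = 0.00678 in edgeR), 0.60 without replicate 1 (adjusted p = 1.22e-05) and −0.01 within replicate 1.

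Among the activators, *Psme1* and *Psme2* were higher in Het and *Psme4* was lower. *Psme1* (chromosome 14 from 55578123 to 55581529, plus strand) had an RQ of 0.0826, 0.0637, 0.0574 and 0.0657 in WT, against 0.0733, 0.0995, 0.0924 and 0.100 in Het at day 14, replicates 1 to 4. At day 21 it had 0.0800, 0.0770, 0.0785 and 0.0762 in WT, against 0.0790, 0.0977, 0.0985 and 0.100 in Het. Outside replicate 1 the genotypes did not overlap. For *Psme1* the log2 fold change was 0.36 (standard error 0.08, adjusted p = 0.00944 in edgeR), 0.50 without replicate 1 (adjusted p = 2.27e-05) and −0.09 within it.

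*Psme2* (chromosome 14 from 55587441 to 55591113, minus strand) encodes the partner of the *Psme1* product. Its RQ at day 14 was 0.120, 0.0952, 0.0941 and 0.0988 in WT, against 0.115, 0.149, 0.140 and 0.147 in Het, replicates 1 to 4. At day 21 it was 0.114, 0.112, 0.113 and 0.107 in WT, against 0.121, 0.138, 0.141 and 0.148 in Het. All Het libraries but that of replicate 1 at day 14 were above every WT library. Its log2 fold change was 0.37 (standard error 0.07, adjusted p = 0.00303 in edgeR), 0.48 without replicate 1 and 0.02 within it. Reads of *Psme2* may be shared with *Psme2b*, whose transcript is 99.4% identical over 794 bases and which had 28 to 157 counts per library.

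*Psme4* (chromosome 11 from 30771726 to 30880361, plus strand) was the one member called lower in Het. WT libraries were closely grouped, with an RQ of 0.242, 0.251, 0.237 and 0.248 at day 14 and 0.236, 0.236, 0.246 and 0.234 at day 21. Het libraries had 0.157, 0.167, 0.211 and 0.198 at day 14 and 0.235, 0.195, 0.199 and 0.191 at day 21. Of the 8 Het libraries, 7 were below every WT library, the exception being replicate 1 at day 21. The log2 fold change was −0.32 (standard error 0.07, adjusted p = 0.0064 in edgeR), −0.32 also without replicate 1, and the exact permutation p was 0.000311. *Psme3* had 0.15 (adjusted p = 0.0571 in edgeR) and was not called, though it was in the edgeR fit of all 24 libraries (adjusted p = 0.043). The low-count *Psma8* had −0.33 and was not called. Of its Het libraries, 6 were below every WT library and 2 above every WT library.

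**Figure D2:**
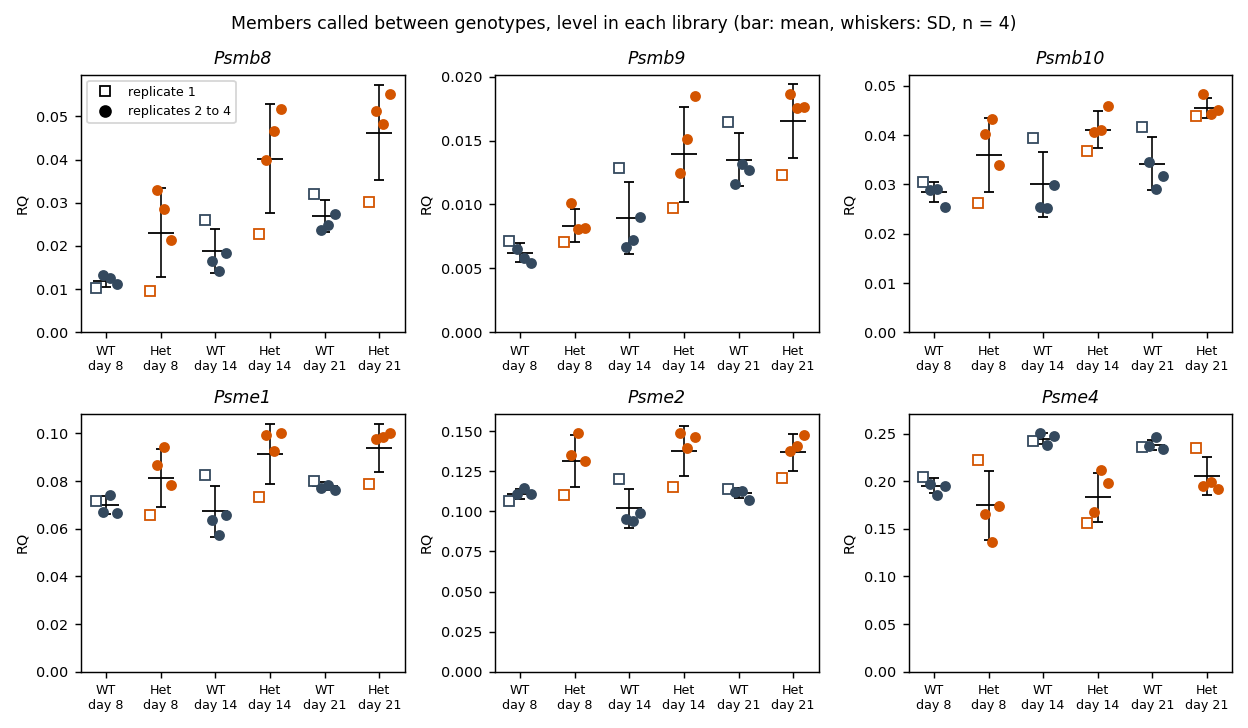
RQ (vertical axis, from 0) of the 6 members called between genotypes at days 14 and 21, in each library by genotype and day; open squares are replicate 1, filled circles replicates 2 to 4, and the bar and whiskers are the mean and SD of 4 libraries. In *Psmb8*, *Psmb9*, *Psmb10*, *Psme1* and *Psme2* the open squares of Het lie below the filled circles of Het at each day, while *Psme4* is lower in most Het libraries.

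The calls depended on which replicates entered. Without replicate 1, 24 members were higher (against 17.2% of all genes) and 2 lower (against 22.2%), and all 6 members above kept their calls. Without replicate 2, 3 or 4, no member was called in either direction, and 63 to 181 genes of the whole transcriptome were called in a direction. *Psmb8* then had a log2 fold change of 0.83 to 0.87 (adjusted p = 0.0641 to 0.0963 in edgeR). With replicate number as a block, 8 members were higher (against 9.34% of all genes) and 2 lower (against 14.2%), and the additions were *Psmd4*, *Psmd8* and *Psmc5* among the higher and *Psma8* among the lower.

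The values of the constitutive subunits were small and close to one another, and none was called. Their log2 fold changes at days 14 and 21 were positive for 30 of 31, with a median of 0.10, against a median of −0.05 for all genes tested. They ranged from −0.02 (*Psmd3*) to 0.15 (*Psmd8*), with an SD of 0.04 over the 31 genes against 0.39 over all genes. The median was 0.10 in the α ring (7 genes), 0.10 in the β ring (7 genes), 0.12 in the ATPases (6 genes), 0.04 in the base and ubiquitin receptor genes (3 genes) and 0.07 in the lid (8 genes). How many were called turned on the scale: 11 were higher with TMM factors (edgeR's usual scale, which moved the median of all genes to 0.00, with 12.4% of genes higher and 7.48% lower), 12 with DESeq2's size factors (13.5% of genes higher and 6.95% lower) and 17 with the total count (16.6% higher and 5.08% lower). Without replicate 1, 17 of the 31 were higher and their median was 0.14. Within replicate 1, 9 of the 31 were positive and the median was −0.04.

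The 3 constitutive catalytic genes were near this median. *Psmb5* had a mean RQ of 0.146 ± 0.0096 in the WT libraries, against 0.158 ± 0.0137 in those of Het over days 14 and 21 (SD, n = 8 each), higher in Het in 8 of 8 same-numbered pairs, with a log2 fold change of 0.12 (standard error 0.05, adjusted p = 0.152 in edgeR). *Psmb6* had 0.217 ± 0.0200 in the WT libraries, against 0.232 ± 0.0246 in those of Het (SD, n = 8 each), a log2 fold change of 0.10 (adjusted p = 0.342 in edgeR). *Psmb7* had 0.163 ± 0.0149 in the WT libraries, against 0.175 ± 0.0239 in those of Het (SD, n = 8 each), a log2 fold change of 0.10 (adjusted p = 0.411 in edgeR). The 95% interval of the log2 fold change was 0.00 to 0.23 for *Psmb5*, −0.04 to 0.24 for *Psmb6* and −0.07 to 0.27 for *Psmb7*.

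Set against their constitutive counterparts per kilobase, the immune subunits were minor partners, to different degrees. *Psmb8* made up 3.19% ± 0.67 of the summed level of *Psmb8* and *Psmb5* in WT and 6.26% ± 2.22 in Het at day 14, and 4.82% ± 0.36 and 7.49% ± 1.96 at day 21 (SD, n = 4 each). *Psmb9* made up 1.98% ± 0.39 of its pair with *Psmb6* in WT and 2.94% ± 1.01 in Het at day 14, and 3.15% ± 0.30 and 3.67% ± 0.78 at day 21 (SD, n = 4 each). Per kilobase, *Psmb10* held a larger part of its pair with *Psmb7*, 26.6% ± 2.37 in WT and 31.6% ± 3.47 in Het at day 14, and 29.6% ± 1.86 and 35.1% ± 2.62 at day 21 (SD, n = 4 each). These shares are of mRNA per length and carry no test. They depend on the exon lengths used, 3381 bases for *Psmb8*, 899 for *Psmb5*, 1705 for *Psmb10* and 3421 for *Psmb7*. Without length, mean RQ in WT over days 14 and 21 was 0.0229 for *Psmb8* beside 0.146 for *Psmb5*. It was 0.0321 for *Psmb10* beside 0.163 for *Psmb7*, so the contrast between these pairs came largely from the lengths.

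**Figure D3:**
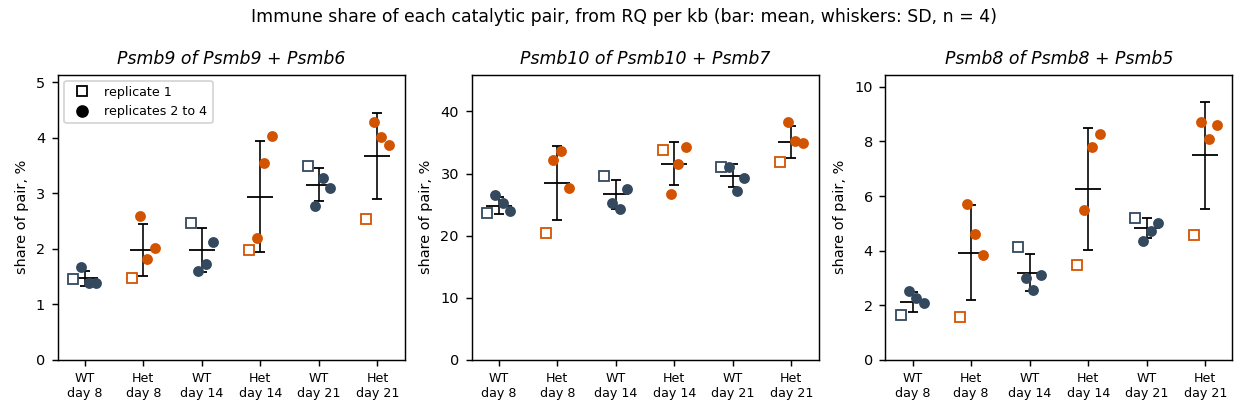
Share (percent, vertical axis from 0) of the immune subunit in the summed RQ per kb of each catalytic pair, in each library; open squares are replicate 1, filled circles replicates 2 to 4, bars and whiskers the mean and SD of 4 libraries. The share of *Psmb8* and *Psmb9* stays under 9% in every library, while that of *Psmb10* is 20.5% to 38.3%. The shares depend on the exon lengths used.

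At day 8 no member was called in edgeR in either direction (0.318% of 20434 genes were higher and 0.313% lower). The 4 members at an unadjusted p under 0.05 in that fit were the 3 immunoproteasome genes and *Psme2*. DESeq2's Wald test called *Psmb8* alone, against 241 of 20434 genes higher and 217 lower. *Psmb8* had an RQ of 0.0103, 0.0133, 0.0126 and 0.0112 in WT, against 0.00961, 0.0330, 0.0285 and 0.0214 in Het, replicates 1 to 4. Its 3 higher Het libraries were above every WT library and replicate 1 was below, for a log2 fold change of 0.97 (standard error 0.29, adjusted p = 0.143 in edgeR). *Psmb9* had 0.43 (adjusted p = 0.487), *Psmb10* 0.34 (adjusted p = 0.402) and *Psme2* 0.25 (adjusted p = 0.304) in the same edgeR fit. Without replicate 1 these 4 and *Psme1* were higher and *Psme4* was lower, against 4.14% and 13.2% of all genes. The 31 constitutive subunits had a median of 0.02 and 0 calls, with 0 at an unadjusted p under 0.05 in edgeR.

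The difference between the Het effect at days 14 and 21 and that at day 8 was tested directly. It was called for no member in edgeR, with none at an unadjusted p under 0.05 (0.166% of all genes were called higher and 0.00489% lower). The difference was −0.02 for *Psmb8* (95% interval −0.74 to 0.70), 0.05 for *Psmb9* (−0.47 to 0.57), 0.10 for *Psmb10* (−0.27 to 0.46) and −0.15 for *Psme4* (−0.43 to 0.13). The intervals are wide beside the effects themselves. Without replicate 1 no member was called either (edgeR, against 3.93% of genes higher and 0.794% lower), and the difference was 0.10 for *Psmb8*, 0.20 for *Psmb9*, 0.11 for *Psmb10* and −0.04 for *Psme4*. At day 14 taken singly, *Psmb8* (1.12), *Psme1* (0.45) and *Psme2* (0.44) were higher and *Psme4* (−0.42) was lower (adjusted p = 0.0398, 0.0413, 0.019 and 0.0423 in edgeR, against 1.93% of genes higher and 1.51% lower). At day 21 taken singly no member was called in edgeR, with 5 at an unadjusted p under 0.05, against 0.651% of genes higher and 0.259% lower.

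From day 8 to days 14 and 21, *Psmb8* and *Psmb9* rose, 10 of the 17 regulatory particle genes fell, and no core particle gene was called when all 24 libraries entered on the housekeeping scale without a block. Of the members, 4 were higher and 13 lower (edgeR, adjusted p under 0.05), against 40.9% and 17.4% of 20434 genes, and the median of all genes was 0.16 on the log2 scale, so the falls are larger when read against it. *Psmb8* rose by 0.91 (standard error 0.18, adjusted p = 0.000197 in edgeR) and *Psmb9* by 0.84 (standard error 0.13, adjusted p = 7.86e-06). Without replicate 1 the log2 fold changes were 0.77 and 0.82 (adjusted p = 3.36e-07 and 2.01e-07 in edgeR). *Psmb10* had 0.22 (adjusted p = 0.0429 in edgeR) and *Psme4* 0.23 (adjusted p = 0.0061). Both values turned negative on the total count scale (−0.09 and −0.07), and with TMM factors neither was called (0.02 and 0.06). *Psmb10* kept its call in 6 of the alternatives with a test, lost it in 11 and turned in 1. Among the 11 were replicate number as a block (0.21, adjusted p = 0.0502 in edgeR) and leaving out replicate 1 (0.12, adjusted p = 0.067). The call of *Psme4* was lost without replicate 3 (0.15, adjusted p = 0.0891 in edgeR) or replicate 4 (0.23, adjusted p = 0.0539). *Psme1* (0.12) and *Psme2* (0.00) were not called.

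The regulatory particle held most of the falls. None of the 14 core particle genes was called (median 0.01), while 10 of the 17 regulatory particle genes were lower (median −0.19), together with the chaperones *Psmd5* (−0.24) and *Psmd9* (−0.14) and the activator *Psme3* (−0.14). No fall reached 20%. On the TMM scale, where 27.4% of genes were higher and 32.8% lower and the median of all genes was −0.02, 16 regulatory and 11 core genes were lower, so the absence of core calls belongs to the housekeeping scale. On that scale the core gene *Psma6* was higher with the replicate block, where 12 regulatory genes were lower (against 44.7% of genes higher and 19.4% lower). Without replicate 1, the core genes *Psma1*, *Psma6* and *Psmb1* and the ATPase *Psmc6* were higher and 12 regulatory genes were lower (against 50.2% of genes higher and 19.8% lower). The lower median of the regulatory particle held on both scales (−0.37 against −0.17 for the core with TMM), and the difference between the particles was not tested.

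*Psmc4*, an ATPase of the base, fell the most. Its RQ in replicates 1 to 4 was 0.224, 0.175, 0.183 and 0.178 in WT, against 0.227, 0.174, 0.198 and 0.184 in Het at day 8. At day 14 it was 0.208, 0.147, 0.138 and 0.156 in WT, against 0.215, 0.184, 0.144 and 0.158 in Het, and at day 21 it was 0.149, 0.136, 0.136 and 0.127 in WT, against 0.167, 0.139, 0.145 and 0.153 in Het. Every day 21 library was below every day 8 library of its genotype, while day 14 overlapped day 8 through replicate 1 in WT and through replicates 1 and 2 in Het. Replicate 1 was the highest of each group. The log2 fold change of days 14 and 21 over day 8 was −0.31 (standard error 0.08, adjusted p = 0.0017 in edgeR), and −0.31 also without replicate 1.

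*Psmd14*, the deubiquitinase of the lid, had an RQ of 0.165, 0.137, 0.132 and 0.132 in WT at day 8, 0.150, 0.115, 0.110 and 0.116 at day 14 and 0.115, 0.103, 0.104 and 0.108 at day 21, replicates 1 to 4. In Het it had 0.181, 0.127, 0.127 and 0.139 at day 8, 0.0949, 0.128, 0.128 and 0.131 at day 14 and 0.133, 0.111, 0.118 and 0.121 at day 21. In WT the later days overlapped day 8 through the day 14 library of replicate 1. In Het replicates 2 to 4 at day 14 lay within the range of day 8, and so did replicate 1 at day 21. Its log2 fold change was −0.28 (standard error 0.07, adjusted p = 0.00291 in edgeR) and −0.19 without replicate 1 (adjusted p = 1.5e-05). *Psmd5*, a chaperone of base assembly, had the next largest fall at −0.24 (standard error 0.06, adjusted p = 0.00142 in edgeR), or −0.19 without replicate 1 (adjusted p = 5.5e-05).

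**Figure D4:**
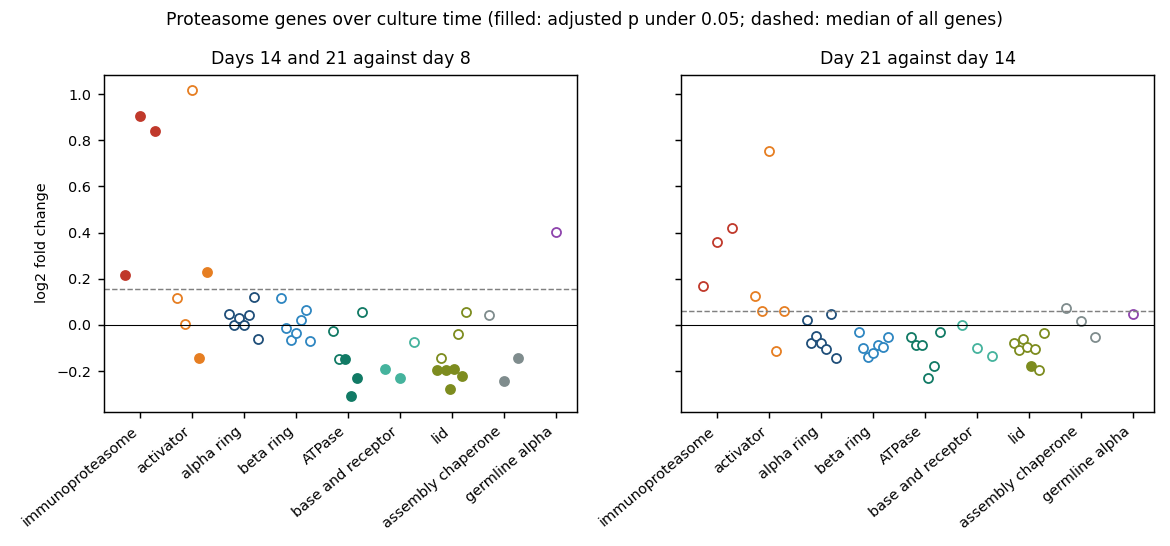
Log2 fold change (vertical axis) of each tested member by sub-complex, for days 14 and 21 over day 8 (left) and day 21 over day 14 (right), on the housekeeping scale; filled points have an adjusted p under 0.05 and dashed lines are the medians of all genes tested (0.16 and 0.06). On the left the filled constitutive points are 10 regulatory particle genes between −0.31 and −0.15 and the highest filled points are *Psmb8* and *Psmb9*, while on the right *Psmd3* alone is filled.

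From day 14 to day 21, *Psmd3*, a lid subunit, was the only member called (edgeR), against 13.3% of genes higher and 5.94% lower. Its RQ was 0.220, 0.197, 0.189 and 0.199 in WT at day 14 and 0.166, 0.181, 0.171 and 0.166 at day 21, without overlap. In Het it was 0.219, 0.183, 0.179 and 0.181 at day 14 and 0.186, 0.175, 0.170 and 0.169 at day 21, where the days overlapped through replicate 1. The log2 fold change was −0.18 (standard error 0.05, adjusted p = 0.0225 in edgeR). Of the 31 constitutive subunits, 28 had a negative value, with a median of −0.09. The immunoproteasome genes had positive values that did not pass the test, 0.36 for *Psmb8*, 0.42 for *Psmb9* and 0.17 for *Psmb10* (adjusted p = 0.158, 0.0749 and 0.229 in edgeR). Without replicate 1 these 3, *Psme1* and *Psme2b* were higher and 11 members were lower (against 18% and 10.9% of all genes), and with the replicate block 4 were lower and *Psme2b* was higher (against 7.24% and 15.9%).

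Macrophage genes moved in the same direction as the immunoproteasome genes between genotypes and days, but not in every library. All 12 markers of the list (among them *Csf1r*, *Adgre1*, *Cd68* and *Lyz2*) were higher in Het at days 14 and 21 (median log2 fold change 1.04, range 0.92 to 1.18) and rose from day 8 to the later days (median 3.83). Of all genes, 7.26% were called higher in Het at days 14 and 21 and 40.9% rose from day 8. None of the 12 markers was at 0 in any library. Their summed RQ in replicates 1 to 4 was 0.502, 0.267, 0.251 and 0.306 in WT, against 0.425, 1.02, 1.13 and 0.819 in Het at day 8. At day 14 it was 4.84, 1.82, 1.52 and 2.60 in WT, against 3.34, 8.08, 7.52 and 7.58 in Het. At day 21 it was 6.65, 6.98, 7.72 and 6.52 in WT, against 8.56, 12.4, 12.3 and 19.6 in Het. In replicate 1 this sum, like *Psmb8*, was lower in Het than in WT at days 8 and 14. At day 21 the sum of replicate 1 was higher in Het (8.56 against 6.65). *Psmb8* (0.0302 against 0.0320), *Psmb9* (0.0123 against 0.0165) and *Psme1* (0.0790 against 0.0800) were lower there. *Psmb10* (0.0440 against 0.0416) and *Psme2* (0.121 against 0.114) were higher, as the sum was. From day 14 to day 21 all 12 macrophage genes were called higher (median 1.12), against 13.3% of all genes. The 3 immunoproteasome genes also had positive values (0.17 to 0.42) but were not called. Without replicate 1 all 3 were called higher, against 18% of all genes. The difference between the macrophage and immunoproteasome genes was not tested. The part of macrophages in the immunoproteasome and PA28 results was not tested.

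In the macrophage sum *Lyz2* weighed most, with a mean RQ of 5.94 in Het and 2.79 in WT over days 14 and 21. *Mpeg1* came next, with 0.683 and 0.348. In replicates 2 to 4 the sums of Het at day 14 (7.52 to 8.08) and WT at day 21 (6.52 to 7.72) were close. In the same libraries the RQ of *Psmb8* was 0.0398 to 0.0517 and 0.0237 to 0.0273, without overlap, and that of *Psmb9* was 0.0124 to 0.0185 and 0.0116 to 0.0132, with overlap. These sets were chosen after their values were seen, differ in day as well as genotype and carry no test. OB genes moved the other way in Het at days 14 and 21. Of the markers, 3 of 4 for OBs and 2 of 4 for mature OBs were called lower, against 8.88% of all genes. Of 8 osteoclast genes, 7 were tested. In Het at days 14 and 21, 1 was higher and 1 lower, against 7.26% and 8.88% of all genes. Against 40.9% of all genes, 5 of the osteoclast genes were higher at the later days than at day 8. Their counts ran from 0 to 1 for *Calcr*, the calcitonin receptor gene, which was at 0 in 20 libraries, to 3472 to 24150 for *Ctsk*, the gene of a collagen-degrading protease. Their part in the results was not tested.

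**Figure D5:**
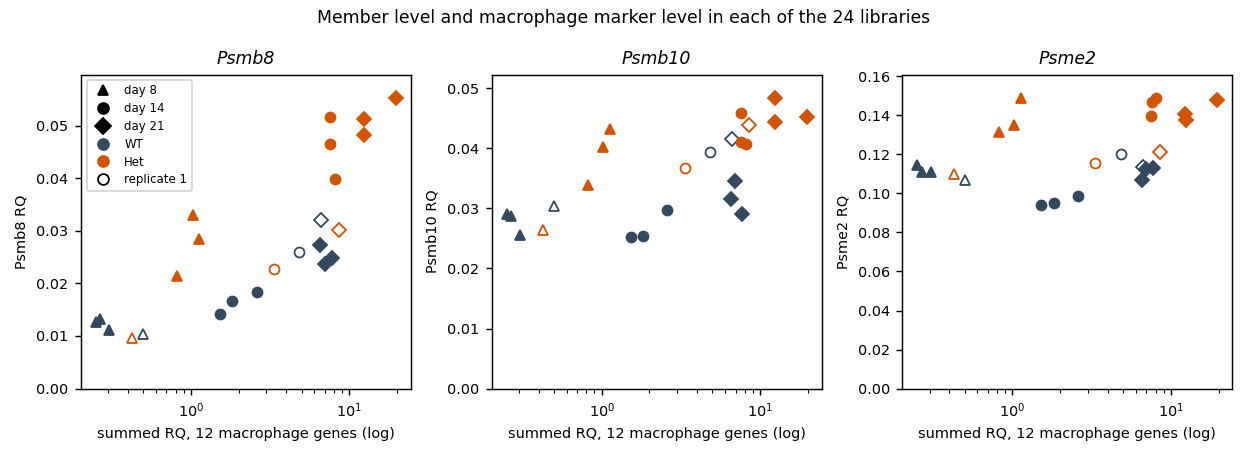
RQ of *Psmb8*, *Psmb10* and *Psme2* (vertical axes, from 0) against the summed RQ of 12 macrophage genes (horizontal axis, log scale) in each of the 24 libraries; colours give the genotype, shapes the day, and open symbols are replicate 1. *Lyz2* has the highest mean RQ of the 12 genes at days 14 and 21 and weighs most in the sum. In *Psmb8*, *Psmb10* and *Psme2*, Het at day 14 in replicates 2 to 4 lies above WT at day 21 in replicates 2 to 4, at sums of 7.52 to 8.08 and 6.52 to 7.72. These sets were chosen after their values were seen, differ in day as well as genotype and carry no test.

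Other genes of the pathway were counted from lists. Of all genes tested at days 14 and 21, 7.26% were called higher in Het and 8.88% lower. In the class I antigen presentation list, which the immunoproteasome supplies with peptides, 2 of 12 were higher in Het at days 14 and 21 (median 0.21), *H2-D1* with 0.63 (adjusted p = 0.0109 in edgeR) and the interferon regulatory factor *Irf1* with 0.48 (adjusted p = 0.00471). *Tap1*, the neighbour of *Psmb9*, had 0.20 (adjusted p = 0.133 in edgeR). From day 8 to the later days *Tap1* had −0.11 and was not called, while *Psmb9* and *H2-D1* (1.57) rose.

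Of 22 proteasome assembly and associated factors, 2 were higher in Het (median 0.02), against 7.26% of all genes. Among the 2 was the assembly chaperone *Psmg4* with 0.31 (adjusted p = 0.0423 in edgeR). Against 7.26% of all genes, 3 of 9 genes of transcriptional control were higher (median −0.01). They were *Nfe2l2* with 0.29, its partner *Mafg* with 0.24 and *Nfe2l1*, the activator of proteasome genes when proteasome activity falls short, with 0.17 (adjusted p = 0.0144, 0.0263 and 0.0393 in edgeR). *Nfe2l1* and *Mafg* also rose from day 8 to the later days (0.44 and 0.45, adjusted p = 3.73e-08 and 1.09e-06 in edgeR). On the same housekeeping scale *Psmb5* and *Psmb6*, whose promoters are shown above, had 0.02 and 0.06 and were not called. On the total count scale *Psmb5* and *Psmb6* had −0.28 and −0.24. A link between the regulators and these genes was not tested. None of 6 ubiquitin genes was called in edgeR, with 1 at an unadjusted p under 0.05.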

How the data were processed

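Polyadenylated RNA was sequenced from 24 libraries of primary OBs, 4 per genotype and day, as grouped by the labels. The deposited values are raw counts per gene, made by the authors with cutadapt 2.5, STAR 2.73a and featureCounts 1.6.4 of the Subread package on mm10 according to the submitters' processing notes. The strand rule and the treatment of multimapping reads are not given in the sources used here, and no molecular identifiers were used. RQ and library scales rest on the geometric mean count of 4 housekeeping genes. Counts were tested with edgeR 4.0.16 (R 4.3.3; filterByExpr, glmQLFit, glmQLFTest), with 16 libraries and day as covariate for days 14 and 21 and with 24 libraries in 6 group means for the rest, and were adjusted by Benjamini-Hochberg over all genes at 0.05. DESeq2 1.42.0, other scales, filters and left-out replicates were alternatives, and the fits were checked on simulated data. RQ was compared by two-sided exact permutation tests.

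Genes given with values are the catalytic pairs, *Psme1*, *Psme2*, the 3 largest called rises and falls of each comparison, and from each other list the 3 largest called changes at days 14 and 21 and *Nfe2l1*. Of these, 1 gene is not reported here. Any further gene was chosen after its values were seen. Members and lists were chosen with earlier results of these data known. Exon positions and lengths are from GENCODE (GRCm38), which held all 44 members, and promoters from RefSeq. Same-numbered libraries deviated together (12 pairs, correlation 0.19 to 0.79, against a median of −0.07 over 36 differently numbered pairs). Replicate numbers therefore entered as pairs in the pair counts and as a block in an alternative fit. The main fits and the permutation tests held no replicate term. Among replicates 2 to 4 the correlation was −0.02 to 0.15, so these pairs shared little.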

Additional observations from a re-analysis of the deposited data

Results flagged for a closer look

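Of 78 groups of 4 libraries examined for a library far from the rest, 8 had such a library, and in all 8 it was replicate 1. The groups are several members taken over the same libraries, so they are not independent and no chance rate applies. The share over all genes was not counted. In WT, replicate 1 lay above the others for *Psmb6* at day 14 (RQ 0.26, others 0.209 to 0.213), *Psmb7* at day 21 (0.185, others 0.154 to 0.156), *Psmc4* at day 8 (0.224, others 0.175 to 0.183) and *Psmd14* at day 8 (0.165, others 0.132 to 0.137) and day 14 (0.15, others 0.11 to 0.116). In Het it lay above for *Psmd3* at day 14 (0.219, others 0.179 to 0.183) and below for *Psmd14* at day 14 (0.0949, others 0.128 to 0.131) and *Psme1* at day 21 (0.079, others 0.0977 to 0.1).

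The lid subunit *Psmd11* was higher in Het in 4 of 4 same-numbered pairs at day 21 and lower in 4 of 4 at day 8. The difference between days 21 and 8 was not tested. The pattern was picked from a scan of all 44 members over the days, and its rate over all genes was not counted.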

How the results depend on the processing

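With other scales the number of members higher in Het at days 14 and 21 (5) was 24 with the total count, 18 with DESeq2's size factors and 17 with TMM. The count over all genes moved too, from 1440 of 19839 to 3289, 2690 and 2463 with these scales. The number of members was 8 in DESeq2's Wald test (against 1938 genes), 8 with the replicate block (against 1852) and 9 with replicate 1 as a covariate (against 2042). It was 3 at day 14 alone (against 395) and 0 at day 21 alone (against 133). When 1 replicate was left out it was 0 to 24 (against 76 to 3308). The number lower (1, against 1762 genes) was 2 with the block (against 2824) or the covariate (against 3015). It was 0 at day 21 alone (against 53) or for changes over 20% (against 1041), and 0 to 2 when 1 replicate was left out (against 63 to 4274). At day 8 the Wald test called 1 higher (against 241). Leaving out 1 replicate there gave 0 to 5 higher (against 0 to 814) and 0 to 1 lower (against 0 to 2591).

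From day 8 to days 14 and 21, the number higher (4) was 2 for changes over 20%, in Het alone, on the total count scale, with TMM or with DESeq2's size factors, 8 without *Mrfap1* in the scale, 7 with the covariate, and 2 to 10 when 1 replicate was left out. Over all genes the number higher (8351 of 20434) was 4339 with the total count, 8905 without *Mrfap1* and 9289 with the covariate. It was 6796 to 9874 when 1 replicate was left out. The number of members lower (13) was 31 with TMM, 26 with DESeq2's size factors, 36 with the total count, 5 in Het alone and 0 for changes over 20%. Over all genes the number lower (3560) was 6692, 6049, 8805, 2390 and 2248 in the same order. From day 14 to day 21, the number higher (0) was 1 in the Wald test, with the block and with the covariate, and 0 to 5 when 1 replicate was left out. The number lower (1) was 11 with TMM or DESeq2's size factors, 12 with the total count, 5 without *Mrfap1* or with the covariate, 4 with the block, 3 in the Wald test, 2 with a mean of at least 50 counts, 0 without *Sdha*, in either genotype alone or for changes over 20%, and 0 to 11 when 1 replicate was left out. Over all genes the number lower (1178 of 19839) was 2156 with TMM, 2120 with DESeq2's size factors and 2025 with the total count. It was 1611 with the covariate, 1436 with the block, 1516 in the Wald test and 799 without *Sdha*. Leaving out 1 replicate gave 406 to 2098 genes lower and 1206 to 3475 higher.

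Signs turned from day 8 to the later days for *Psmb5* with the total count (−0.28), TMM (−0.16) and DESeq2's size factors (−0.12), for *Psme2* (−0.30, −0.19 and −0.15) and *Psmb6* (−0.24, −0.12 and −0.078) with the same 3 scales, and with the total count for *Psmb10* (−0.094) and *Psme4* (−0.068). Within replicate 1, an alternative chosen after seeing the data, they turned in the Het comparison for *Psmb8* (−0.14), *Psmb9* (−0.41), *Psmb10* (−0.012) and *Psme1* (−0.095), and among values that were not called for *Psmb6* (−0.013), *Psmb7* (−0.18), *Psmd5* (−0.075), *Psmd14* (−0.22) and *Psmd3* (0.083). The cause was not tested. Beyond the calls given here and in the report, the replicate block changed the call of *Psmc4* from day 14 to day 21 (−0.21). Counts of *Psmb11* (0 to 4), *Psme2b* (28 to 157), *Psma8* (40 to 185) and *Psmb9* (83 to 484) were the lowest and limit precision most.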

Other observations

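The low-count members *Psme2b* and *Psma8* were higher in replicate 1 than in the other three libraries in all 6 groups, as were 5 of the 31 constitutive subunits (*Psmc4*, *Psmc5*, *Psmd2*, *Psmd7* and *Psmd13*). The RQ of *Psme2b*, a near copy of the PA28 gene *Psme2*, was 0.00686 to 0.0155 in replicate 1 and 0.0011 to 0.00488 in the other libraries. That of *Psma8*, the germline α subunit, was 0.00652 to 0.0109 in replicate 1 and 0.00172 to 0.00721 in the others. For *Psme2* replicate 1 (0.107 to 0.121) also lay outside the other three libraries in all 6 groups, above them in 2 and below them in 4.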
